A study of Homo sapiens with 4 samples.

Results

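The cytosolic chaperonin CCT, also called TRiC, is built from 8 related subunits, encoded by TCP1, CCT2, CCT3, CCT4, CCT5, CCT6A, CCT7 and CCT8. These 8 genes, listed by name, were taken from 19663 protein-coding genes, and c-MYC binding at their promoters was read from ChIP-seq peak lists, in which DNA pulled down with an antibody is sequenced and piles up where the protein was bound. The cells were MIA PaCa-2, an established human line of pancreatic ductal adenocarcinoma. Treatment lasted 8 h in every case, and was DMSO (the solvent), AMG510 (an inhibitor, 100 nM) or trametinib (a MEK inhibitor, 10 nM). One library was made with a c-MYC antibody for each treatment, and an additional DMSO library was made with non-specific immunoglobulin (IgG), so that the series held 4 libraries. With 1 library in each group, no difference below has a replicate check.

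CCT subunits form a pair of stacked rings, and each ring holds the 8 different subunits once. The rings use ATP to close over newly made proteins, with actin and tubulin as the best known clients, and release them once folded. Because every subunit has its own place in the ring, the genes are usually expressed together, and a shortage of any of them limits the whole complex. c-MYC, bound to its partner MAX, recognizes a short DNA element called the E-box, and it occupies the promoters of many genes for growth and protein production.

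A peak was called a promoter peak where its summit, the point of highest signal, was no more than 1 kb away from a TSS (transcription start site) used by any protein-coding transcript. Of the 8 genes, 5 had a promoter peak under DMSO, 5 under AMG510, 4 under trametinib and 0 in the IgG library. Over all 19663 protein-coding genes the share with a promoter peak was 24.2% under DMSO, 15.3% under AMG510, 11.8% under trametinib and 0.559% for IgG, so the CCT shares of 62.5, 62.5 and 50.0% lay above those of all genes in each c-MYC list. CCT2, CCT4, CCT5 and CCT7 were among the 5.59% of all genes that had one in every c-MYC list (3 of 3). TCP1 had one under DMSO alone, a pattern of 10.9% of all genes, and CCT8 under AMG510 alone, a pattern of 4.21%. CCT3 and CCT6A had none in any c-MYC list, like 68.3% of all genes. Of the 5 genes with a DMSO promoter peak, 4 also had one under AMG510 and 4 under trametinib, where the shares over all genes with a DMSO promoter peak were 43.0 and 35.2%. Both drug comparisons share the DMSO library.

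Each of the 14 CCT promoter peaks had its summit downstream of the canonical start, inside the gene. The shortest distance was 119 bp and the longest 415 bp. Over all genes with a promoter peak, the summit was downstream of the canonical start for 66.5% under DMSO, 67.5% under AMG510 and 65.1% under trametinib. The reference sequence at the summits is shown for the 6 genes with a peak, since these are the bases over which the c-MYC signal was highest. It is given on the strand of the gene, 5′ to 3′, with the summit base in capitals. The summits of the first 5 genes are those of the DMSO list and that of CCT8 is from the AMG510 list. On GRCh38 the stretches are chr12:69585632-69585660 on the plus strand for CCT2, chr2:61888437-61888497 on the minus strand for CCT4, chr5:10250584-10250612 on the plus strand for CCT5, chr2:73234459-73234519 on the plus strand for CCT7, chr6:159789157-159789217 on the minus strand for TCP1 and chr21:29073352-29073380 on the minus strand for CCT8.
CCT2: cggccctccgcacaTggtgcgagccatgc
CCT4: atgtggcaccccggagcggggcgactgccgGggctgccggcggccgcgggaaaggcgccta
CCT5: ggccgctcagcccgCttactgagctcggg
CCT7: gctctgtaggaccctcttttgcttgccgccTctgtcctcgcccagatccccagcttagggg
TCP1: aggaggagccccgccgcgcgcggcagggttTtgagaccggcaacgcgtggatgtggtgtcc
CCT8: gaagggctcggccaCcggagcctgcgggc

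The peaks of the 4 genes bound in each c-MYC list are described first. The fold enrichment is the authors' ratio of the tags piled up at the summit to the local background. The rank places this value within the list of its own library, which held 9552 peaks under DMSO, 10378 under AMG510 and 5431 under trametinib. The tags at the summit are the whole number behind the ratio, recovered from the list, and their 95% intervals cover counting error only. The median gene with a promoter peak had a fold enrichment of 5.01 under DMSO, 4.71 under AMG510 and 4.76 under trametinib, with 16, 13 and 14 tags.

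CCT5 (ENSG00000150753) encodes the epsilon subunit and spans 10250280 to 10266389 of chromosome 5, plus strand. Its DMSO peak, from 10250306 to 10250799, had a fold enrichment of 10.3 (interval 7.77 to 13.3), the highest of the family, and ranked 111th of 9552. There were 55 tags at the summit under DMSO (41.4 to 71.6), 29 under AMG510 (19.4 to 41.6) and 35 under trametinib (24.4 to 48.7). The fold enrichment was 6.96 under AMG510, at rank 287 of 10378, and 7.58 under trametinib, at rank 191 of 5431. Both drug values were lower than that of DMSO, while the peak still stood above 97.2 and 96.5% of the peaks of the drug lists, beside 98.8% in DMSO. The summits fell in intron 1, 318 bp downstream of the canonical TSS under DMSO, 335 bp under AMG510 and 286 bp under trametinib. This peak also counts for ATPSCKMT, a gene on the opposite strand whose nearest protein-coding start was 701 bp from the DMSO summit, so the binding cannot be assigned to 1 of these genes.

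CCT4 (ENSG00000115484), the gene of the delta subunit, spans 61868085 to 61888656 of chromosome 2, minus strand. The DMSO peak ran from 61888244 to 61888633 and had a fold enrichment of 9.64 (6.90 to 13.1), at rank 157. It held 38 tags at its summit (26.9 to 52.2), against 24 under AMG510 (15.4 to 35.7) and 27 under trametinib (17.8 to 39.3). The fold enrichment under the inhibitors was 6.59, at rank 398, and 7.56, at rank 194, above 96.2 and 96.4% of the peaks of those lists. In DMSO and AMG510 the summit lay in the coding part of exon 1, 189 and 257 bp downstream of the TSS, and in trametinib it lay in the 5′ UTR, 120 bp downstream.

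CCT7 (ENSG00000135624) encodes the eta subunit and spans 73234308 to 73253005 of chromosome 2, plus strand. Its values were close to each other in the c-MYC lists. The summit held 28 tags under DMSO (18.6 to 40.5), 27 under AMG510 (17.8 to 39.3) and 30 under trametinib (20.2 to 42.8), with fold enrichments of 7.33, 7.09 and 6.86. These ranked 554th, 258th and 270th in their lists, above 94.2, 97.5 and 95.0% of the peaks. In AMG510 it was the CCT peak of highest fold enrichment. The trametinib peak, from 73233966 to 73234659, was the broadest of the CCT peaks at 694 bp, against 471 bp in DMSO and 297 bp in AMG510. It reached upstream of the TSS, as the DMSO peak did to a lesser extent. All 3 summits were in intron 1, at 181, 162 and 119 bp from the TSS.

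CCT2 (ENSG00000166226), the gene of the beta subunit, spans 69585459 to 69601570 of chromosome 12, plus strand, and had the weakest of the peaks found in each c-MYC list. It rested on 13 tags under DMSO (6.92 to 22.2), 15 under AMG510 (8.40 to 24.7) and 12 under trametinib (6.20 to 21.0). The fold enrichment was 5.44, 6.30 and 5.07, which exceeded 77.0, 95.4 and 70.7% of the peaks of the respective lists. The rank thus stood higher in AMG510 than in the other lists, while the counting intervals of the tags overlapped throughout. The summits lay in intron 1, 187, 226 and 212 bp downstream of the canonical TSS and within 20 bp of the start of a shorter protein-coding transcript.

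TCP1 (ENSG00000120438) encodes the alpha subunit, after which the chaperonin is named, and spans 159778498 to 159789602 of chromosome 6, minus strand. Its DMSO peak from 159789049 to 159789299 had a fold enrichment of 5.08 (3.12 to 7.87), near the median of all genes with a promoter peak, and 18 tags (10.7 to 28.4). The summit was in intron 1, 415 bp into the gene from the canonical TSS, and the nearest protein-coding start, that of a shorter transcript, lay a further 319 bp downstream. No TCP1 peak was listed under either inhibitor. With the local background of DMSO scaled to the drug libraries, 10 tags would have been needed for a call in AMG510 and 10 in trametinib. This number lies just below the interval of the DMSO summit, which leaves out the counting error of the drug counts. A missing call is therefore not a measured loss. The pileup at this position in the drug libraries was not analysed here.

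CCT8 (ENSG00000156261), the gene of the theta subunit, spans 29056326 to 29073648 of chromosome 21, minus strand. The AMG510 peak from 29073226 to 29073442, in intron 1 and 282 bp from the canonical TSS, had a fold enrichment of 5.45 (3.08 to 9.04) and 13 tags (6.92 to 22.2). It ranked 1216th of 10378. With the AMG510 background, 8 tags would have been enough for a call in DMSO and 8 in trametinib. This minimum lies inside the counting interval of the AMG510 peak, so at this depth a binding difference between the libraries was not detectable at CCT8.

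The genes without any promoter peak were CCT3 (ENSG00000163468; chromosome 1, 156308968 to 156338292, minus strand), which encodes the gamma subunit, and CCT6A (ENSG00000146731; chromosome 7, 56051765 to 56063989, plus strand), which encodes a zeta subunit. They differed in CpG content, with 60 CpG dinucleotides in the 1001 bp around the CCT3 start and 106 around that of CCT6A, the latter the most of the 8 genes. The median was 75 for the CCT genes, 67 for all protein-coding genes and 90 for genes with a DMSO promoter peak. Both have a neighbour in the opposite direction close by, TSACC with its nearest start 211 bp from that of CCT3, and PSPH, which encodes an enzyme of serine synthesis, 161 bp from that of CCT6A. A call at the genome-wide background needed 8, 7 and 8 tags in the DMSO, AMG510 and trametinib libraries, and weaker binding would not be listed.

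**Figure D1:**
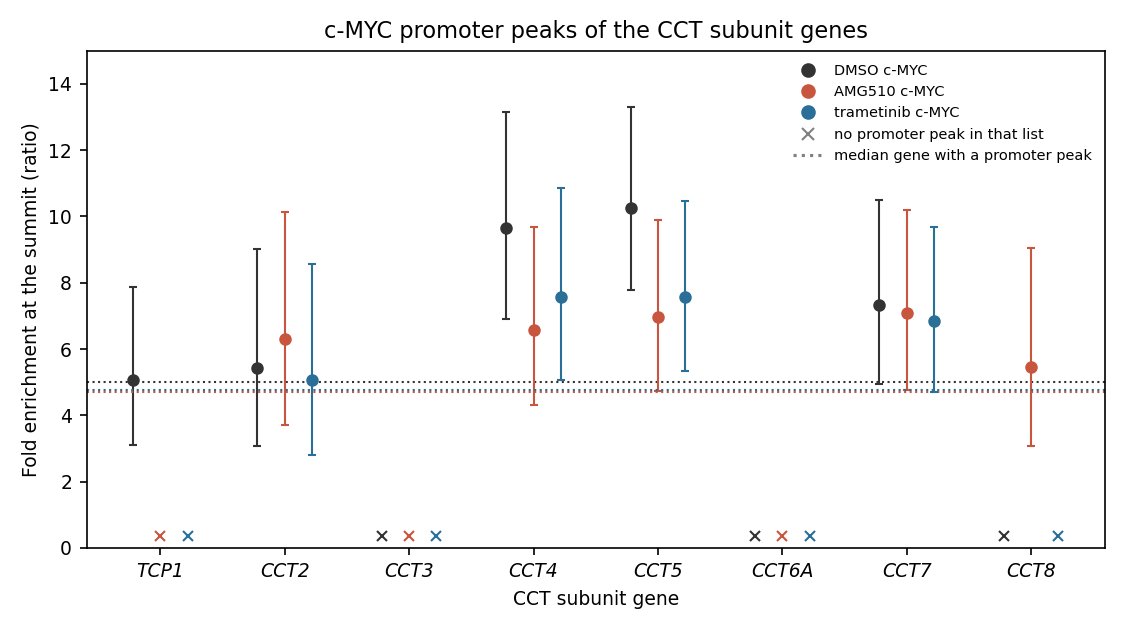
Fold enrichment (y axis, ratio) at the strongest promoter peak of each CCT gene (x axis) in the 3 c-MYC lists; points are single libraries, bars are 95% counting intervals, crosses mark genes with no promoter peak in that list and dotted lines the median gene with a promoter peak. CCT4 and CCT5 under DMSO, at 9.64 and 10.3, stand highest, and CCT3 and CCT6A have crosses only.

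By fold enrichment the DMSO order was CCT5, CCT4, CCT7, CCT2 and TCP1. Counting intervals overlapped between all of these genes. They were 7.77 to 13.3 for CCT5, 4.96 to 10.5 for CCT7 and 3.12 to 7.87 for TCP1. Under AMG510 the order was CCT7, CCT5, CCT4, CCT2 and CCT8, with values from 7.09 to 5.45 and intervals that overlapped throughout. Under trametinib CCT5 and CCT4, at 7.58 and 7.56, were followed by CCT7 and then CCT2. At the 4 genes with a peak in each c-MYC list, values ran from 5.44 to 10.3 in DMSO, 6.30 to 7.09 in AMG510 and 5.07 to 7.58 in trametinib. Fold enrichment depends on the background of its own library, and these ranges were not tested against each other. The median percentile of the CCT promoter peaks was 94.2 in DMSO, 96.2 in AMG510 and 95.7 in trametinib, beside medians of 64.9, 65.5 and 59.0 over all genes with a promoter peak. The score threshold of 60, which the study applied before its motif search, left 3, 4 and 3 CCT genes in DMSO, AMG510 and trametinib, and 9.81, 2.98 and 2.93% of all genes. CCT4, CCT5 and CCT7 were left in each list, and CCT2 in AMG510.

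To follow the amount of signal, summit tags per tag in calling were compared between each drug and DMSO at the 4 genes with a peak in both. In calling, each tag was extended to a set length, recovered as 177 bp in DMSO, 157 bp in AMG510 and 163 bp in trametinib. The ratios were not scaled for this, and a shorter extension can lower a summit count. Its share in the negative ratios, of CCT genes and of all genes, was not tested. Interval bounds close to 0 are therefore uncertain. For CCT5 the log2 ratio was −0.94 under AMG510 (95% counting interval −1.65 to −0.27) and −0.70 under trametinib (−1.35 to −0.06). Of the 8 intervals, these 2 lay below 0. For CCT4 the ratios were −0.68 (−1.48 to 0.09) and −0.54 (−1.31 to 0.21). CCT7, at −0.07 (−0.89 to 0.74) and 0.05 (−0.74 to 0.85), and CCT2, at 0.19 (−0.99 to 1.38) and −0.16 (−1.42 to 1.09), lay near 0 with wide intervals, so that neither a gain nor a loss was detectable. The median over the 4 genes was −0.38 for AMG510 and −0.35 for trametinib. Over all genes with a promoter peak in both lists it was −0.49 (2045 genes) and −0.46 (1678 genes), and 88.0 and 85.4% of these genes had a negative ratio. The CCT5 ratios were above those of 17.6 and 31.2% of these genes, so its lower tags were within the range seen at other promoters, and the CCT7 ratios were above 82.0 and 87.1%. On the fold enrichment, which also takes in the local background, the CCT median was −0.30 for AMG510, beside −0.20 for all genes, and −0.23 for trametinib, beside −0.23, so the smaller decrease of the CCT median seen in tags was not seen on this scale. There, the log2 ratio of CCT7 under trametinib was −0.10, of the other sign than that of its tags. Summed over the 4 genes there were 134 tags in DMSO and 95 in AMG510, a log2 ratio of −0.52 per tag in calling (−0.91 to −0.13). Trametinib had 104, a ratio of −0.41 (−0.80 to −0.03). A summit is the highest point of its own list, and both mates of a read pair can count as tags, so these intervals are too narrow. The sums pool different genes of single libraries, so they are not repeat counts of a family change. Most of the DMSO tags were at CCT5 and CCT4 (55 and 38). Both summed ratios lay near the medians over all genes, −0.49 and −0.46.

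**Figure D2:**
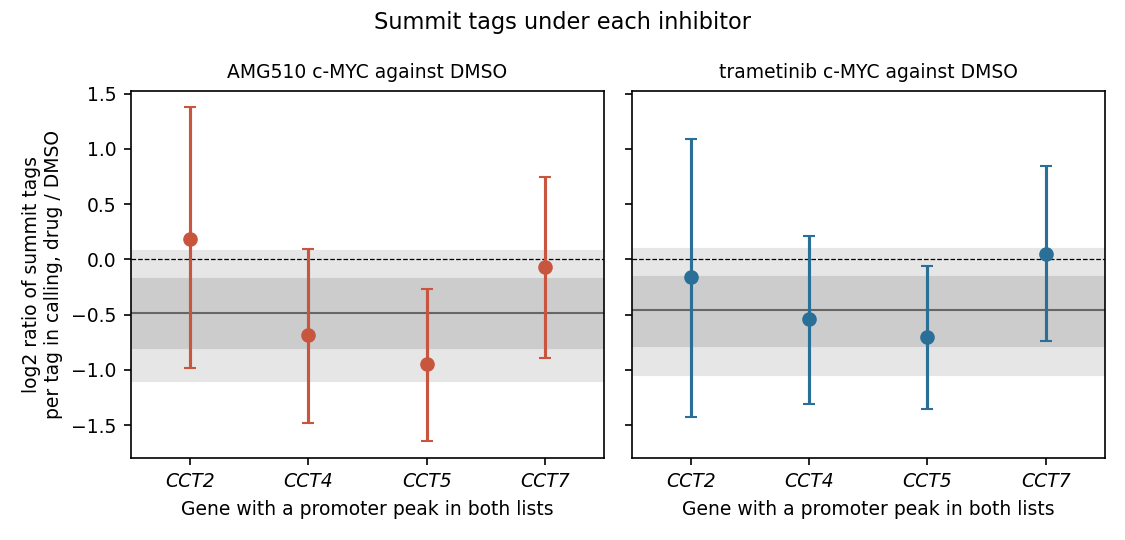
Log2 ratio of summit tags per tag in calling (y axis), drug over DMSO, for the 4 CCT genes with a promoter peak in both lists (x axis), AMG510 on the left and trametinib on the right; bars are 95% counting intervals, the dark and light bands hold the middle 50 and 80% of all genes with a peak in both lists and the line is their median. CCT5 is the lowest in each panel, at −0.94 and −0.70, and lies inside the light band. Ratios are not scaled for the tag extension length, which differed between libraries.

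Positions were compared at the 4 genes with a peak in each c-MYC list. At CCT2, CCT4, CCT5 and CCT7 the peaks of the 3 c-MYC lists shared a common stretch, as they did at 73.6% of the 1100 genes with a promoter peak in each c-MYC list. The summits of the 3 lists were spread over 39 bp at CCT2, 49 bp at CCT5, 62 bp at CCT7 and 137 bp at CCT4, where the median of genes with a common stretch was 102 bp. The CCT4 spread was thus above this median and the others below it.

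**Figure D3:**
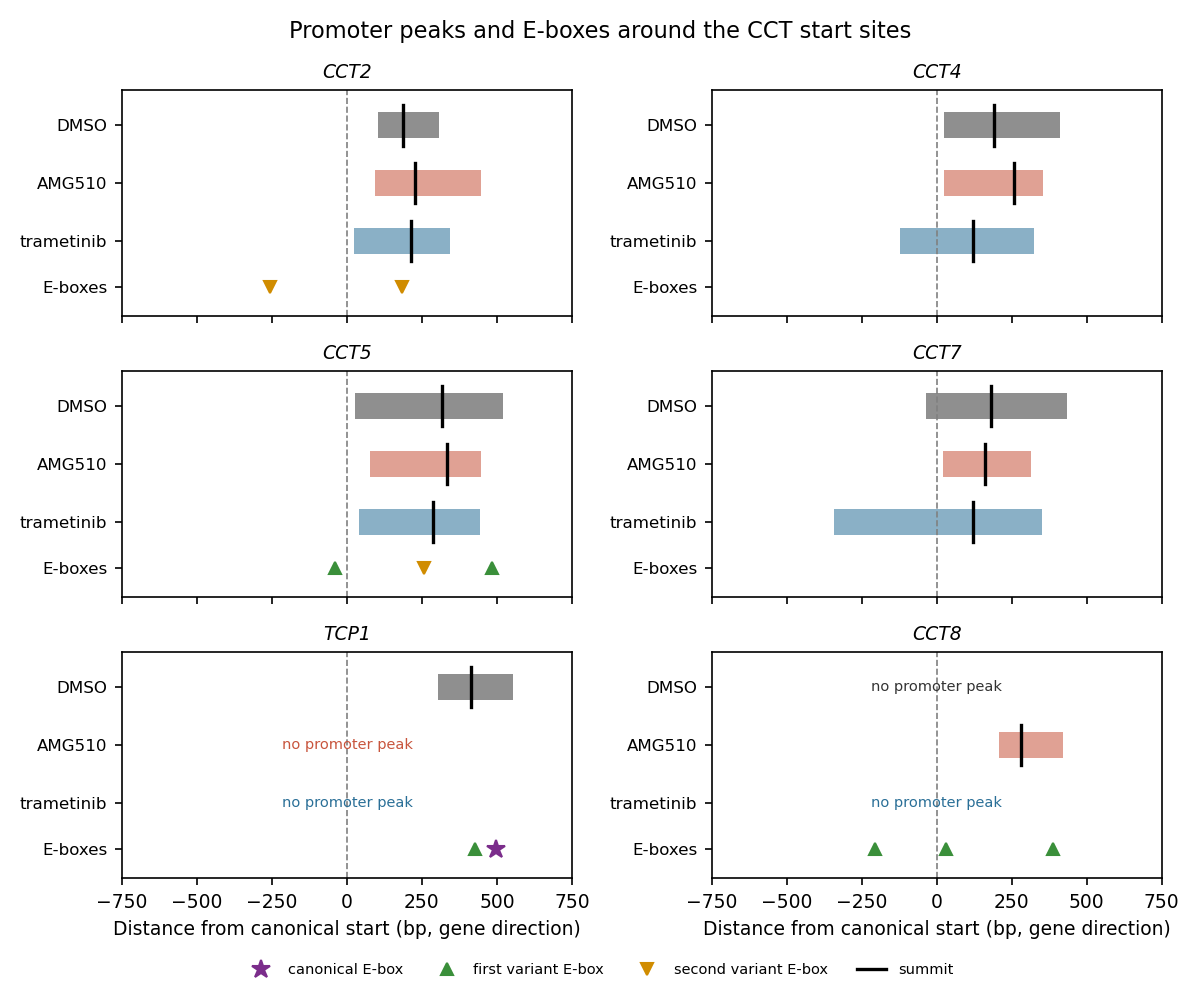
Promoter peaks of 6 CCT genes along the distance from the canonical TSS (x axis, bp, in the direction of the gene), 1 row per c-MYC list; bars span the peaks, black lines mark summits and symbols in the lowest row mark E-boxes (canonical CACGTG, first variant CACGCG, second variant CACATG). All summits lie to the right of the TSS, from 119 to 415 bp, and the canonical E-box appears at TCP1 only.

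The E-box was then looked for on both strands of GRCh38, with distances to a summit taken from the middle of the motif, to ask whether the strong CCT peaks sat on the sequence that MYC recognizes best. A canonical E-box, CACGTG, was within 100 bp of the summit for 1 of the 5 CCT genes in DMSO, 0 of 5 in AMG510 and 0 of 4 in trametinib. Over all genes with a promoter peak the shares were 17.3, 14.5 and 17.6%, and counts this small cannot be set apart from them. Within 1 kb of the canonical TSS, CACGTG was present at TCP1 and CCT6A and at 29.2% of all protein-coding genes. CCT2, CCT4, CCT5 and CCT7, the genes with a peak in each c-MYC list, had none in that window. The variant CACGCG occurred there at TCP1, CCT3, CCT5, CCT6A and CCT8 and at 41.5% of all genes, and was within 100 bp of the summit at TCP1 alone of the CCT genes, or 1 of 5 genes in DMSO and 0 in either drug list. Over all genes with a promoter peak the shares were 23.1, 21.1 and 21.7%. Farther from the summit, CACGCG also lay inside the CCT5 peak of DMSO, at 169 bp, and inside the CCT8 peak of AMG510, at 106 bp.

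A further variant, CACATG, was added after the sequences had been seen. It held the DMSO summit base of CCT2 within its letters and lay 59 bp from the DMSO summit of CCT5, inside the peaks of all 3 c-MYC lists at both genes. Over all genes with a promoter peak, 7.69% in DMSO, 6.05% in AMG510 and 8.65% in trametinib had it within 100 bp of the summit. Within 1 kb of the canonical TSS, CACATG was present at 5 CCT genes and at 49.4% of all protein-coding genes. The 5 were CCT2, CCT3, CCT4, CCT5 and CCT6A, so genes without a peak were among them. No letters of any of the 3 forms lay within 100 bp of a summit at CCT4 or CCT7. The sites are printed because they show how the genes differ at the summit. They are on the strand of the gene with the E-box in capitals (read as CATGTG or CGCGTG where the other strand holds the named form), with the TCP1 sites at chr6:159789087-159789116 and chr6:159789157-159789186, the CCT2 site at chr12:69585630-69585659, the CCT5 site at chr5:10250524-10250553 and the CCT6A site, outside any listed peak and at −703 bp from the TSS, at chr7:56051050-56051079.
TCP1 canonical: ctcccgggctcgCACGTGcgggccacgcct
TCP1 first variant: tgagaccggcaaCGCGTGgatgtggtgtcc
CCT2 second variant: cccggccctccgCACATGgtgcgagccatg
CCT5 second variant: gagcggctctgcCATGTGctccccggaaag
CCT6A canonical: aaagtaaaatacCACGTGttactgaatccc

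TCP1, which had the lowest fold enrichment of the 5 CCT genes with a DMSO peak, thus had both CACGTG, 85 bp from the summit, and CACGCG, 15 bp from it. By other measures the DMSO peak of CCT2 was weaker, with 13 tags against 18 at TCP1 and a −log10 q-value of 4.98 against 5.93. No relation between these motifs and peak strength was tested. The CCT6A promoter, with no peak, also held both forms, at −703 and −379 bp from its TSS. The core of the heat shock element, GAANNTTC, bound by heat shock factors that raise chaperone genes under protein damage, was found within 1 kb of the TSS at TCP1, CCT2, CCT3, CCT4, CCT6A and CCT8, or 6 of 8 genes, and at 34.9% of all protein-coding genes. It lay inside the CCT4 peak of each c-MYC list, 143, 211 and 74 bp from the summits in DMSO, AMG510 and trametinib, and in AMG510 inside the CCT2 peak, 119 bp from its summit, and inside the CCT8 peak, 39 bp from its summit. Within 100 bp of a summit it was thus found for 0, 1 and 1 CCT genes, beside 1.85, 1.96 and 2.15% of all genes with a promoter peak.

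Genes that work with CCT were taken as lists and counted. Values are given for those with a promoter peak in at least 2 c-MYC lists. The lists were not tested against the share of all protein-coding genes, which was 24.2% in DMSO, 15.3% in AMG510 and 11.8% in trametinib. Among relatives of the chaperonin, CCT6B, the second zeta subunit gene, had a promoter peak in each c-MYC list, with fold enrichments of 5.49, 3.70 and 5.30 and 22, 11 and 19 tags in DMSO, AMG510 and trametinib. The others, MKKS, BBS10, BBS12 and CCT8L2, had none in DMSO, and MKKS had one in AMG510. Prefoldin hands unfolded actin and tubulin to CCT. Of its 6 subunit genes, 2 were bound at the promoter in DMSO, 0 in AMG510 and 1 in trametinib. PFDN2 had one in DMSO and trametinib, with fold enrichments of 3.91 and 4.39. Of 4 cofactors of the phosducin-like and thioredoxin-like families, PDCL3 alone had one, in DMSO and trametinib, at 4.46 and 5.39.

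The mitochondrial chaperonin is made of HSPD1 and HSPE1. The pair shares 1 promoter between divergent starts, and its peak had a fold enrichment of 5.83 in DMSO, 7.11 in AMG510 and 4.18 in trametinib, with 29, 27 and 14 tags. The trametinib peak, from 197500437 to 197500599 on chromosome 2, did not overlap the DMSO peak, from 197499351 to 197500006. Over all genes with a promoter peak in DMSO and in the drug list, the peaks overlapped at 78.5% for AMG510 and 81.0% for trametinib. The cytosolic HSP70 and HSP90 system takes proteins before and beside CCT. Promoter peaks were listed for 9 of its 14 genes with DMSO, 5 with AMG510 and 7 with trametinib (64.3, 35.7 and 50.0%). HSP90AB1, the constitutive HSP90, had 48, 19 and 35 tags, beside 55, 29 and 35 at CCT5, and fold enrichments of 8.08, 4.79 and 7.40. DNAJA1, a co-chaperone of HSP70, had overlapping peaks in the c-MYC lists with fold enrichments of 5.21, 5.64 and 5.60. HSPA8, the constitutive HSP70, had 4.86 in DMSO and 5.65 in trametinib, and CDC37, which brings kinases to HSP90, had 5.29 and 5.13, again at overlapping peaks. Peaks of other genes in this system did not overlap between the lists. They were those of DNAJB1, a co-chaperone with 4.00, 4.78 and 4.32, of HSPA4, an HSP70 relative with 6.57 in DMSO and 3.62 in trametinib, and of HSP90AA1, the inducible HSP90, with 5.41 in DMSO and 4.65 in AMG510. HSPA1A, the inducible HSP70, had 7.13 in DMSO and 7.86 in AMG510 at overlapping peaks. Its near-identical copy HSPA1B was listed with none, and reads that fit both copies would be removed by the filter on mapping quality, so values at these genes are uncertain.

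Among 12 clients, mostly actins and tubulins, promoter peaks stood at 7 with DMSO, 2 with AMG510 and 2 with trametinib (58.3, 16.7 and 16.7%). Over all protein-coding genes the shares were 24.2, 15.3 and 11.8%. ACTB, which encodes beta-actin, had fold enrichments of 4.25 in DMSO and 3.00 in AMG510, the latter above 0.222% of its list. TUBB4B had 5.04 in DMSO and 3.52 in trametinib, and TUBB6 had 5.39 in DMSO and 6.68 in AMG510. At ACTB, TUBB4B and TUBB6 the peaks of the DMSO and drug lists did not overlap, so these values belong to different places near the gene. Over all genes with a promoter peak in both lists, 78.5% (AMG510) and 81.0% (trametinib) had overlapping peaks. The tubulin cofactors, which join tubulin chains after CCT releases them, were bound at 4 of 5 genes with DMSO, 3 with AMG510 and 0 with trametinib. TBCB had fold enrichments of 6.29 in DMSO and 5.34 in AMG510 and TBCA 5.38 and 6.67, at overlapping peaks, and TBCD had 4.34 and 4.09 at peaks that did not overlap. The 20S core of the proteasome, another ring-shaped complex, was taken for comparison. It was bound at 3 of 14 genes with DMSO, 4 with AMG510 and 0 with trametinib (21.4, 28.6 and 0%). PSMA7, with 4.92 in DMSO and 6.70 in AMG510, and PSMA2, with 3.61 and 5.38, had overlapping peaks in both of these lists. PSMA1, with 4.78 and 6.26, had its peaks at different starts of the gene. No gene of these lists had a promoter peak in IgG.

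**Figure D4:**
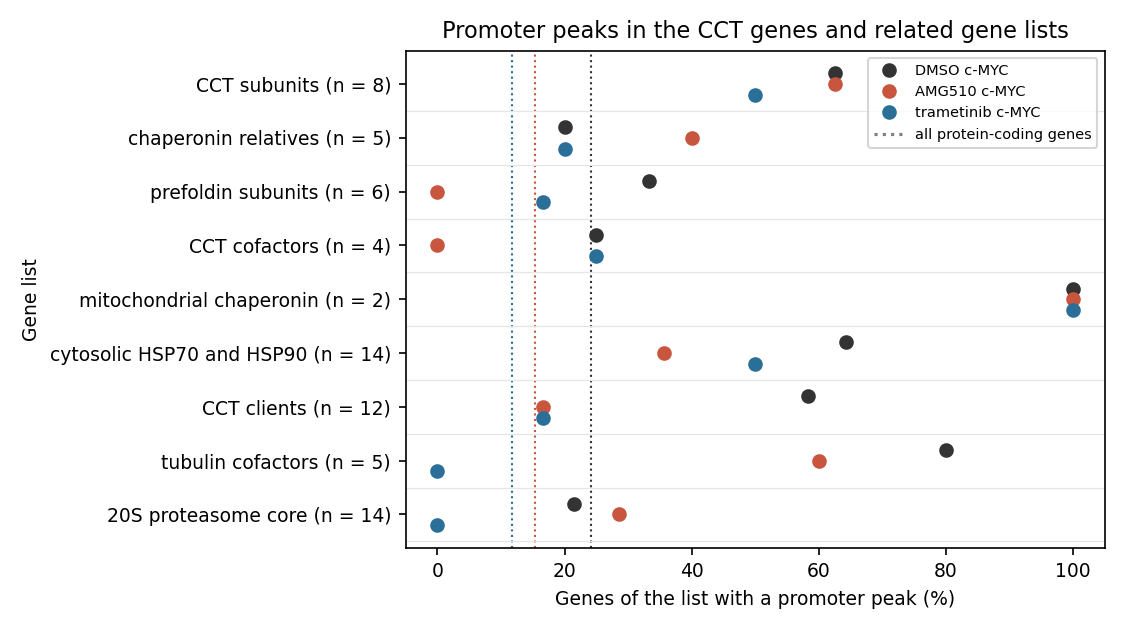
Share of genes with a promoter peak (x axis, %) in the CCT family and in each related gene list (y axis, number of genes in brackets), 1 point per c-MYC list; dotted lines are the shares over all protein-coding genes, 24.2, 15.3 and 11.8%. The CCT points lie at 62.5, 62.5 and 50.0%, and those of the proteasome core at 21.4, 28.6 and 0%.

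The genes whose percentiles over the 4 lists were nearest to the CCT median, by Euclidean distance and with 0 where no promoter peak was listed, were ANAPC1, NUDT19, GLUD1, SHLD2 and TGFBRAP1. The CCT median was 72.7, 91.8, 35.3 and 0 for DMSO, AMG510, trametinib and IgG, a profile that no single CCT gene has, because genes with and without peaks are averaged in it. ANAPC1 was nearest, with 70.9, 96.8, 38.6 and 0. GLUD1 and SHLD2 had identical percentiles, as genes do that are credited with the same peaks.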

How the data were processed

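The data were 4 peak lists, 1 per library. Per the study's methods and the submitters' processing notes, paired reads were trimmed with Trimmomatic 0.39, aligned to GRCh38 with BWA 0.7.17, filtered by mapping quality with SAMtools 1.9, freed of duplicates with Picard, and peaks were called for each library with MACS2 2.2.7.1 at default settings, then cleared of peaks on the ENCODE exclusion list. The deposited lists give a fold enrichment (a ratio of summit pileup to local background), a −log10 p-value, a −log10 q-value, and a deposited score (10 times the −log10 q-value, without its decimals). All were computed by the authors' peak caller within 1 library, so they depend on its background. The distance of the summit from the peak's start is the remaining deposited column.

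Summits were assigned to protein-coding transcripts of GENCODE version 44, without the mitochondrial genome, and the strongest peak by fold enrichment stood for each gene. All contigs of the lists are in the GRCh38 sequence used, and 1 peak in each list, on a short contig, runs past its end. Summit tags were solved from the fold enrichment and p-value and came out whole for 100% of peaks, within a relative error of 0.002 in the p-value. The tags that entered calling, from the genome-wide background, the shortest peak as extension length and a genome of 2700000000 bp, numbered 22700000 for IgG, 24000000 for DMSO, 24300000 for AMG510 and 24800000 for trametinib. Intervals at 95% are exact Poisson for tags and exact conditional binomial for ratios, and cover counting error only. Pileup recovery and promoter assignment were tested on simulated data. No test between groups was possible with 1 library each. The percentile of a peak is the share of its list with a lower fold enrichment. Promoter sequences in the RefSeq table matched 7 of the 8 genes. The sequences printed were read from the GRCh38 genome. Named were the 8 genes, genes sharing their peaks, genes of the related lists with a promoter peak in at least 2 of the 3 c-MYC lists, and the 5 genes of nearest profile. Outside this rule, the other chaperonin relatives, HSPA1B and the neighbours TSACC and PSPH were named after their values were seen. The members and lists were chosen with earlier results of these data known. Python 3.11.15, scipy 1.17.1 and pysam 0.24.0 were used.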

Additional observations from a re-analysis of the deposited data

Results flagged for a closer look

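One peak at a CCT gene outside the promoter rule stood in data that the comparisons did not use. In AMG510 a peak from 56064336 to 56064492 on chromosome 7 had its summit 398 bp beyond the 3′ end of CCT6A, with a fold enrichment of 4.93 and 14 tags (7.65 to 23.5). It lies at a promoter of the downstream gene SUMF2, and neither the IgG list nor another c-MYC list held a peak between the start of CCT6A and 5 kb past its end. The gene SUMF2 was named with its values known.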

How the results depend on the processing

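No paired analysis was possible because the groups hold a single library, which also leaves no replicate to omit. Of 77 values under alternatives, for 14 results, 65 kept their sign and stayed within 1.5 times of the reported count or within its 95% interval (exact for tag ratios, Wilson for percentiles), 12 moved further, and 0 changed sign. Counts and percentiles cannot be negative, so a change of sign was possible for the median tag ratios only. The Wilson interval takes the peaks of a list as its trials, so it is narrow. It does not measure the spread of a median over 5 or 4 genes. A shift as small as 94.2 to 93.6 in DMSO thus counted as moved. Single genes were not checked this way, and CCT7 under trametinib was 0.05 by tags and −0.10 by fold enrichment. The number of CCT genes with a promoter peak in DMSO went from 5 to 3 at a score above 60, a filter that leaves fewer peaks and 9.81% of all genes. The counts were 5, 5 and 4 in DMSO, AMG510 and trametinib with canonical starts only, with starts of all transcripts, within 500 bp, within 2 kb, with any base of the peak counted, at a fold enrichment above 5, and with 5431 peaks taken from each list. The shares over all genes differed between these settings. In DMSO, AMG510 and trametinib they were 24.2, 15.3 and 11.8% as reported, and 12.1, 5.75 and 4.87% at a fold enrichment above 5. With 5431 peaks they were 18.1, 10.8 and 11.8%, and within 500 bp 21.4, 13.5 and 10.3%. The median percentile in DMSO was 93.6 by pileup and 90.9 among promoter peaks. In AMG510 it was 97.2 by q-value, 97.2 by pileup and 92.0 among promoter peaks, and in trametinib 96.5, 96.3 and 93.8. Counting CACATG with CACGTG, chosen after the data were seen as was the equal list length, gave 3, 2 and 2 genes in DMSO, AMG510 and trametinib, where the wider form adds sites by construction. For the percentiles the cause was not tested. The peaks of CCT2 and CCT8 hold 12 to 15 tags, where a call at the genome-wide background took 7 or 8, and that of TCP1 holds 18, where a call at its local background took 10.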

Other observations

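Around the CCT genes, within 20 kb and outside their own promoters, the c-MYC lists held further peaks, most of them at promoters of neighbours. SMYD5, upstream of CCT7, had a fold enrichment of 7.05 in DMSO with 27 tags and of 4.94 in AMG510 with 12 tags. At CCT4, FAM161A and COMMD1 had 5.21 and 4.52 in DMSO, with 16 and 14 tags. In AMG510 a peak of 4.94 with 11 tags lay at −16631 bp from the start of CCT6A at a promoter of PSPH, the neighbour that also has starts beside CCT6A, and a peak of 4.97 with 11 tags lay 10144 bp beyond CCT2 at LRRC10. Away from any protein-coding promoter, an AMG510 peak lay at −8550 bp from the start of CCT3, with a fold enrichment of 3.21 and 7 tags. A DMSO peak of this kind lay at −16243 bp from the start of TCP1, with 3.90 and 10 tags. The single IgG peak near a CCT gene lay at −9776 bp from the start of CCT6A, with 10 tags. The neighbour genes were named after their values were seen.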
